A study of Homo sapiens with 16 samples.

Results

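The genes described here are 34 genes of the endoplasmic reticulum (ER) and its unfolded protein response: chaperones, disulfide isomerases and oxidases, the stress sensors ERN1 and ATF6 with the factor XBP1, genes of ER-associated degradation, and genes that move new proteins into the ER. They were taken by name from a list that was chosen with earlier results of these data known. Each was read from the arrays by gene symbol, with the brightest probe set that carries only that symbol standing for the gene. Of 19775 genes with such a probe set, 32 are on the list and all 32 entered the test with 14049 genes in all. SYVN1, the ubiquitin ligase of ER-associated degradation, and TXNDC5, a disulfide isomerase, have no probe set of their own symbol alone and were not analysed here.

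Transcripts were measured on 16 Affymetrix U133 Plus 2.0 arrays in the established acute myeloid leukaemia lines AML-193, HNT-34, KG1a and HL60. Each line was given azacitidine (AZA), a cytidine analogue that blocks DNA methyltransferases, at 0.5 µM on each of 3 days, or vehicle (DMSO), and then grew for 4 days without drug. That makes 8 groups of 2 arrays, all from cells in light-labelled SILAC RPMI medium, with RNA taken from frozen pellets. The labels do not say whether the 2 arrays of a group were separate cultures, so the p-values take in only how these arrays vary, and that variation could be technical.

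Proteins that enter the ER are folded by chaperones of the BiP system, by lectin chaperones that hold sugar-bearing proteins, and by isomerases that form disulfide bonds, and those that fail are passed back to the cytosol for degradation. When unfolded proteins build up, the sensors IRE1 (gene ERN1), ATF6 and PERK (gene EIF2AK3) release a response. IRE1 splices the mRNA of XBP1 into the form that encodes an active factor, ATF6 is itself cut into a factor, and PERK slows translation while favouring ATF4. Myeloid cells load granules with enzymes made in the ER.

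Signals are log2 values, and a gene is called here where limma's adjusted p was under 0.05 over all genes tested. Replicate arrays correlated at 0.995 to 0.998. As a check of the label, 6 to 9 of the 9 myeloid identity genes on the arrays were at or above the array median in each vehicle group, with ANPEP, FLT3 and KIT below it in AML-193 and MPO below it in HNT-34. Of 9 B cell and plasma cell genes 4 or 5 were at or above the array median in each group, of 6 T cell genes 3 to 5, of 5 epithelial genes 2, and of 5 fibroblast genes 2. The summed linear level of the epithelial list ran from 5834 to 7593 on the HNT-34 arrays and from 353 to 712 on the others. Of these lists MS4A1 and JCHAIN of B and plasma cells, CD3G of T cells, EPCAM, KRT19 and CDH1 of epithelial cells, and COL1A2, COL3A1 and LUM of fibroblasts lay below the array median in all 8 groups. Other genes of the same lists did not. CD79B was at or above it in KG1a, SDC1 in HL60, and IRF4 in AML-193 AZA and HNT-34 vehicle. CD3D was at or above it in HNT-34 AZA, HL60 AZA and both KG1a groups. One measure of RNA quality moved with treatment. The gap between control probes at the 3′ and the 5′ end of ACTB and GAPDH transcripts, called the 3′ minus 5′ signal here, was 1.27 ± 0.463 (SD, n = 2) in AML-193 vehicle and 0.198 ± 0.0433 (SD, n = 2) in AML-193 AZA. In HL60 it moved the other way, from 0.0443 ± 0.0116 (SD, n = 2) in vehicle to 0.722 ± 0.163 (SD, n = 2) in AZA. In HNT-34 its group means were -0.0033 and -0.102, and in KG1a 0.0305 and 0.0587. The fits were repeated with this measure as a covariate. Each of the 8 groups keeps its own mean in these fits, so the covariate's slope is set by how replicates part within groups. The widest gaps were 1.59 against 0.939 in AML-193 vehicle and 0.837 against 0.607 in HL60 AZA. All values given with the covariate therefore rest largely on the AML-193 vehicle pair and extend its slope to the other arrays. In bulk RNA fewer cells with a transcript and less transcript per cell cannot be told apart.

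Promoters of the members carry short elements known as binding places of the factors of this response, and these are shown because they mark which of the genes below share a control sequence. RefSeq windows of GRCh38.p14, 250 bases before to 50 after each start site, were at hand for 31 of the 34 members, in 41 windows. DERL1, DERL3 and PDIA3 have none. The ER stress element (ERSE), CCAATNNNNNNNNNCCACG on either strand, was in a window of 8 of 31 member genes (25.8%) and of 25 of 27305 genes in all (0.0916%). The shorter ERSE-II, an ATTGG and a CCACG with a single free base between them, was in 3 of 31 (9.68%) and in 0.0696% of all genes, and the unfolded protein response element (UPRE), TGACGTGG, was in 3 of 31 (9.68%), namely HYOU1, SSR3 and TXNDC5, and in 0.927% of all genes. A plain CCAAT was in 26 of 31 (83.9%) against 39.7%, and member windows held a median of 33 CpG dinucleotides against 14 over all windows. A match is a description of letters and not a shown binding site, and the ER stress element was worked out on chaperone promoters such as that of HSPA5, so its presence in this list is no finding. The stretches below run 5′ to 3′ on the gene's own strand, upstream of the start site, with ERSE, ERSE-II or UPRE letters in capitals.
HSPA5: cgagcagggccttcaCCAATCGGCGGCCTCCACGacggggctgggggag
CRELD2: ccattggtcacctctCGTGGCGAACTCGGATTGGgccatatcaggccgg
SDF2L1: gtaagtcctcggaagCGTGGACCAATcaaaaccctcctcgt
HYOU1: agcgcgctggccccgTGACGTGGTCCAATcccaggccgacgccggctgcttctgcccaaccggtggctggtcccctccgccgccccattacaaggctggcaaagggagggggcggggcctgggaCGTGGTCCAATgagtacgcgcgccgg
CALR: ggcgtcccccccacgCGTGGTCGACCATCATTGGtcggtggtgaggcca
HSP90B1: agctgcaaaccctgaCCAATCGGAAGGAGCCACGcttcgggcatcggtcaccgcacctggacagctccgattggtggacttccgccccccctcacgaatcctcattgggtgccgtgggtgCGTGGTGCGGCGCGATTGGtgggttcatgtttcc
PDIA6: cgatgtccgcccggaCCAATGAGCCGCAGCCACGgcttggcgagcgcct
XBP1: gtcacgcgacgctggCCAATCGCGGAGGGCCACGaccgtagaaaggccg
HERPUD1: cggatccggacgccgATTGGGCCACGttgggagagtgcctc
The HSPA5 stretch lies at chr9:125241376-125241424 (minus strand), that of CRELD2 at chr22:49918539-49918587 (plus strand) and that of SDF2L1 at chr22:21642099-21642139 (plus strand). Those of HYOU1, CALR and HSP90B1 lie at chr11:119057259-119057408 (minus strand), chr19:12938369-12938417 (plus strand) and chr12:103930201-103930354 (plus strand). Those of PDIA6, XBP1 and HERPUD1 lie at chr2:10812838-10812886 (minus strand), chr22:28800588-28800636 (minus strand) and chr16:56932010-56932050 (plus strand). In HYOU1 the first capital run holds a UPRE that overlaps an ERSE-II, and the second is another ERSE-II. In HSP90B1 both capital runs are ERSE, one on each strand. In CRELD2, CALR and SDF2L1 the element reads on the opposite strand, so the capitals begin with CGTGG. CANX and ERO1B also hold an ERSE in a window.

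HSPA5, the chaperone BiP, PDIA3, a disulfide isomerase, and CRELD2, another ER protein with isomerase activity, were called higher after AZA in all 4 lines, which is 3 of 32 members where 0.712% of all genes tested were. With the 3′ minus 5′ covariate these 3 genes stayed above 0 in AML-193, at 0.20, 0.19 and 0.43, but were not called there. Their limma adjusted p was then 0.502, 0.507 and 0.339. DNAJC3, SDF2L1, MANF and CALR were called higher in 3 of the 4 lines, so that 7 of 32 members were higher in at least 3 lines against 3.92% of all genes. Since the list was chosen with earlier results of these data known, its shares beside those of all genes are a description and not a test. XBP1, ATF6, HERPUD1 and SEL1L were called lower in at least 2 lines, 4 of 32 where 10.3% of all genes were, a share near that of all genes. Called higher in 1 line and lower in another were 7 members, DNAJB9, ERO1A, ERO1B, ATF6, EDEM1, SEL1L and SSR1, against 20.2% of all genes, again a share near that of all genes. By the moderated F-test 27 of 32 members had an AZA effect that differed between lines, where 57% of all genes did.

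In AML-193, 16 of 32 members were called higher and 3 lower, where 20.7% and 20.2% of all genes tested were (40.9% either way). In HNT-34 8 were higher and 6 lower, with 15.4% and 14.8% of all genes (30.2% either way). KG1a had 10 higher and 0 lower, with 6.56% and 3.36% of all genes (9.92% either way). At an unadjusted p under 0.05 in limma 20 were higher there and 0 lower, and no other tool was run. The share of all genes at the unadjusted threshold was not counted, and the shares given here are for adjusted p. HL60 had 18 higher and 6 lower, with 25.2% and 16% of all genes (41.2% either way). The median AZA minus vehicle difference of the 32 members was 0.21, 0.05, 0.24 and 0.33 (log2) in AML-193, HNT-34, KG1a and HL60, and that of all genes 0.02, 0.01, 0.02 and 0.05. In KG1a 25 of the 32 members had both AZA arrays above both vehicle arrays, as had 28.8% of all genes, and 0 had both below, as had 23.5%. In the mean of the 4 effects 19 members were higher and 5 lower, against 23.3% and 16.5% of all genes (39.8% either way).

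The AML-193 count changed most with the RNA quality measure. With the 3′ minus 5′ signal as a covariate, 1 member was called higher in AML-193, PDIA4, and 0 lower, and at an unadjusted p 3 were higher and 2 lower in limma. Over all genes 1.54% were then called higher and 1.12% lower in that line by adjusted p, and the share at the unadjusted p was not counted. The standard error of HSPA5 went from 0.07 to 0.14. The counts with the covariate were 8 higher and 7 lower in HNT-34 (16.7% and 15.8% of all genes), 14 and 0 in KG1a (7.67% and 4.33%) and 14 and 5 in HL60 (9.65% and 5.64%). In AML-193 the other 18 calls were lost, 3 of them with a turned sign. In HL60 DERL2, DERL3, DNAJB9, ERO1B, P4HB and SSR3 lost their call and the other 18 of 24 called members kept theirs, and in HNT-34 and KG1a all 14 and all 10 did. In AML-193 and in HL60 the measure differs between the arms, so what it and AZA each add cannot be told apart in these lines.

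Several calls near the threshold rested on single arrays. In HNT-34 the calls of CALR (without vehicle replicate 1 or AZA replicate 1), DERL2 (without vehicle replicate 1 or AZA replicate 2) and MANF (without AZA replicate 1) were lost, with adjusted p of 0.0509 to 0.0732. In KG1a those of CALR and P4HB were lost without vehicle replicate 2 or AZA replicate 2, that of SEL1L without either AZA array, and that of DNAJB9 without vehicle replicate 1 or either AZA array, with adjusted p of 0.0683 to 0.195. In AML-193 those of DNAJB11 and SSR1 were lost without vehicle replicate 1 and that of ERO1B without vehicle replicate 2 or AZA replicate 2. In HL60 that of DNAJB9 was lost without vehicle replicate 2 or AZA replicate 1, where the latter made it -0.24 with adjusted p 0.146. Counts by role below are to be read against the shares of all genes without the covariate given above.

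**Figure D1:**
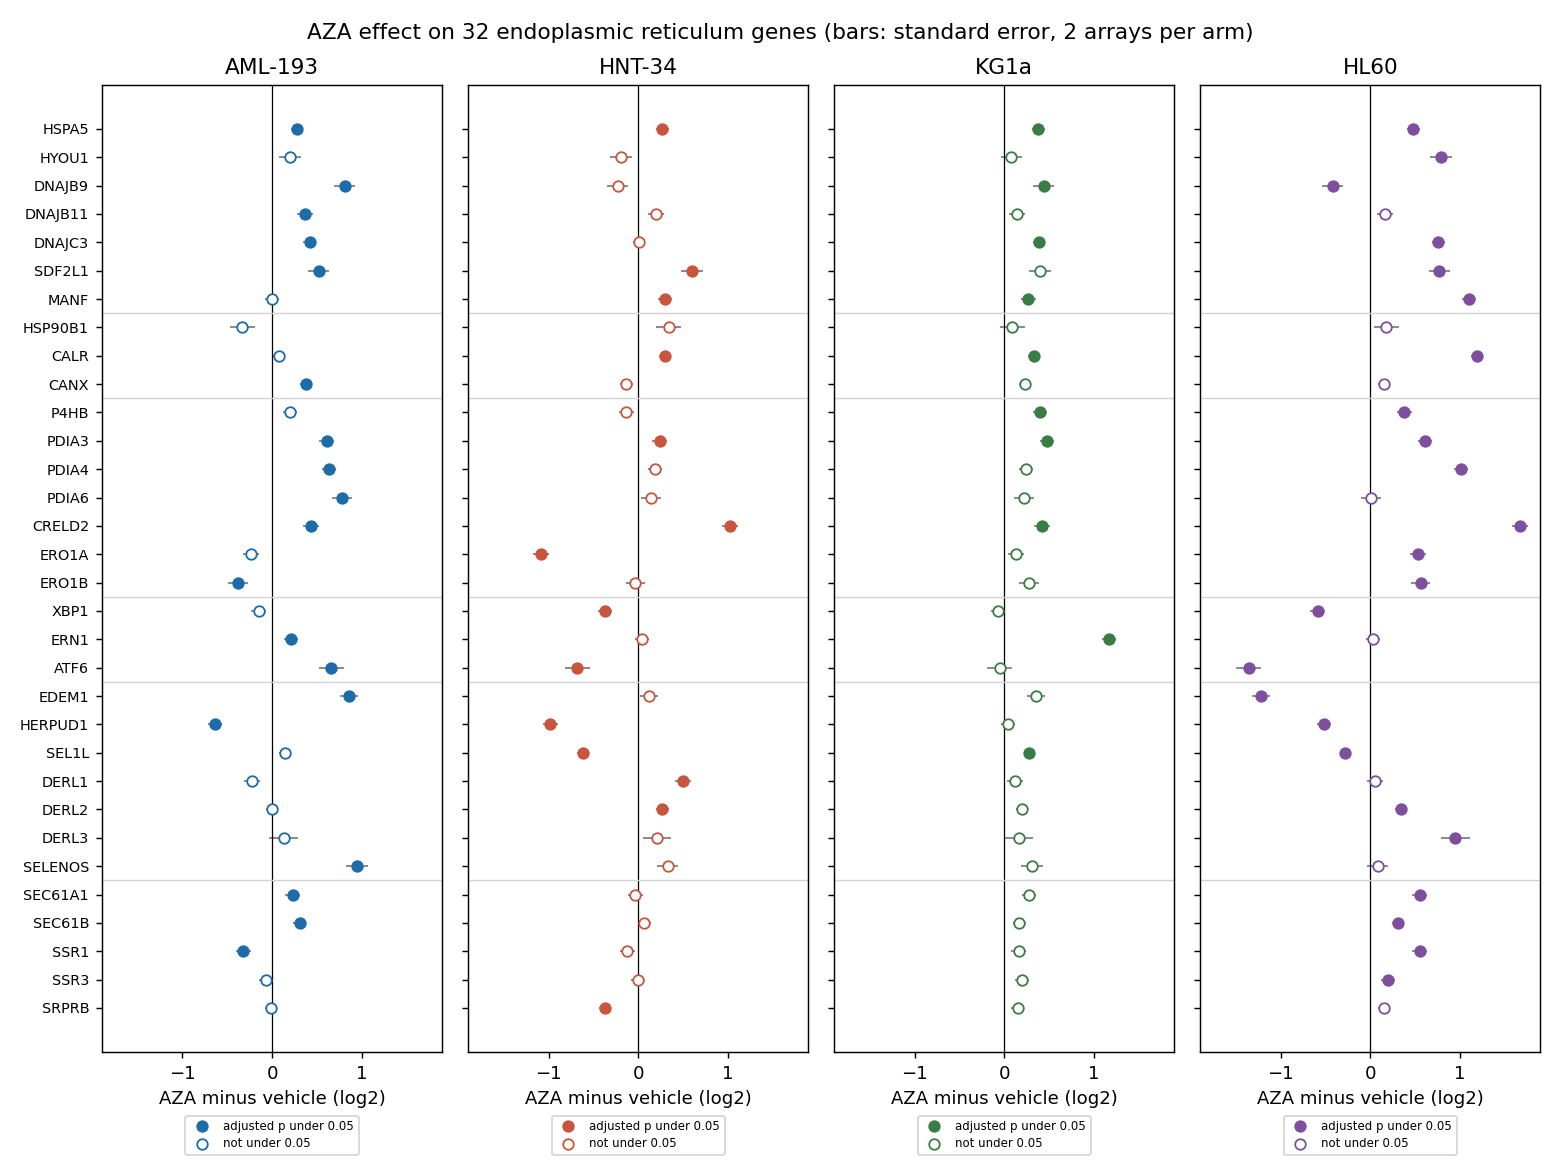
AZA minus vehicle (log2, x axis) for the 32 members in 4 panels by line, ordered by role with grey lines between roles; bars are standard errors and filled points have a limma adjusted p under 0.05. Every KG1a point lies at or above -0.07, while ATF6 runs from 0.66 in AML-193 to -1.36 in HL60.

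The BiP group holds HSPA5 (BiP itself, the main ATP-driven chaperone of the ER) and 6 partners. Of these 7 genes 5 rose in AML-193, 3 in HNT-34, 4 in KG1a and 5 in HL60, and DNAJB9 in HL60 was the only one to fall in any line. HSPA5 signals were 12.50 and 12.50 in AML-193 vehicle and 12.81 and 12.76 in AZA, 12.93 and 12.85 against 13.17 and 13.16 in HNT-34, 12.34 and 12.46 against 12.77 and 12.79 in KG1a, and 12.71 and 12.70 against 13.16 and 13.20 in HL60. Every AZA array was above both vehicle arrays of its line. The differences were 0.28, 0.27, 0.38 and 0.48 (each ± 0.07 SE), or 1.22-, 1.21-, 1.30- and 1.39-fold, with limma adjusted p of 0.00401, 0.00639, 0.00214 and 9.23e-05. The F-test for a difference between lines gave an adjusted p of 0.191. Leaving out HNT-34 vehicle replicate 2 made the HNT-34 difference 0.23, with adjusted p 0.0653, with the covariate the AML-193 difference was 0.20 with adjusted p 0.502, and in KG1a the other HSPA5 probe set, which is dimmer, gave -0.06. The mean of both made the KG1a difference 0.16, with adjusted p 0.153, and a fit of KG1a arrays alone gave adjusted p 0.0514.

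SDF2L1, which works with DNAJB11 in a complex with BiP, gave 10.45 and 10.96 in AML-193 vehicle against 11.26 and 11.20 in AZA, and 10.30 and 10.22 against 10.85 and 10.87 in HNT-34. In KG1a it gave 9.84 and 9.89 against 10.26 and 10.28, and in HL60 10.40 and 10.50 against 11.21 and 11.22. The arms did not overlap in any line, and the differences were 0.52, 0.60, 0.40 and 0.77 (each ± 0.12 SE), with an adjusted p of 0.0519 in KG1a and 0.00383, 0.00195 and 0.000263 in the others. With the covariate the AML-193 value was -0.16, and that of KG1a, 0.42, had an adjusted p of 0.00321. MANF, a small ER protein that binds BiP and can be secreted, overlapped in AML-193, with 11.35 and 11.48 against 11.48 and 11.36. It rose in HL60 from 10.52 and 10.61 to 11.72 and 11.60, a 2.14-fold change (1.10 ± 0.08 SE, adjusted p 3.5e-07). The differences in HNT-34 and KG1a were 0.30 and 0.27, with arrays apart in both, but the KG1a call (adjusted p 0.0431) was lost in 10 of 16 fits with 1 array left out, in the fit without a filter on dim genes and in that of KG1a arrays alone. The HL60 value was 1.18 with the covariate, still called, and the HL60 effect was larger than that of HNT-34 by 0.80 and that of KG1a by 0.83 (adjusted p 0.00012 and 0.000169).

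The co-chaperones with a J domain, which pass clients to BiP and drive its ATPase, went different ways. DNAJC3 rose by 0.42 in AML-193 (0.34, not called, with the covariate), 0.39 in KG1a and 0.76 in HL60, and its KG1a arrays read 10.83 and 10.73 in vehicle and 11.19 and 11.16 in AZA. In HNT-34, the line with its lowest vehicle level, DNAJC3 differed by 0.01 ± 0.07 SE. DNAJB9 rose in AML-193 from 8.32 and 8.61 to 9.31 and 9.25 (0.81 ± 0.12 SE, adjusted p 0.000178) and in KG1a from 8.88 and 9.06 to 9.45 and 9.37 (0.44, adjusted p 0.0316), and it fell in HL60 from 10.57 and 10.59 to 9.98 and 10.34 (-0.42, adjusted p 0.0117). With the covariate the AML-193 and HL60 values of DNAJB9 were 0.19 and -0.02, with adjusted p of 0.659 and 0.93. DNAJB11 rose in AML-193 alone among its calls, by 0.37 (-0.06 with the covariate), and had differences of 0.20, 0.14 and 0.16 elsewhere with both AZA arrays above both vehicle arrays. HYOU1, a large chaperone that reloads BiP, rose in HL60 from 11.55 and 11.51 to 12.23 and 12.41 (0.79 ± 0.12 SE, 1.73-fold, adjusted p 0.000263) and did not pass in the other lines, at 0.20, -0.19 and 0.08.

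**Figure D2:**
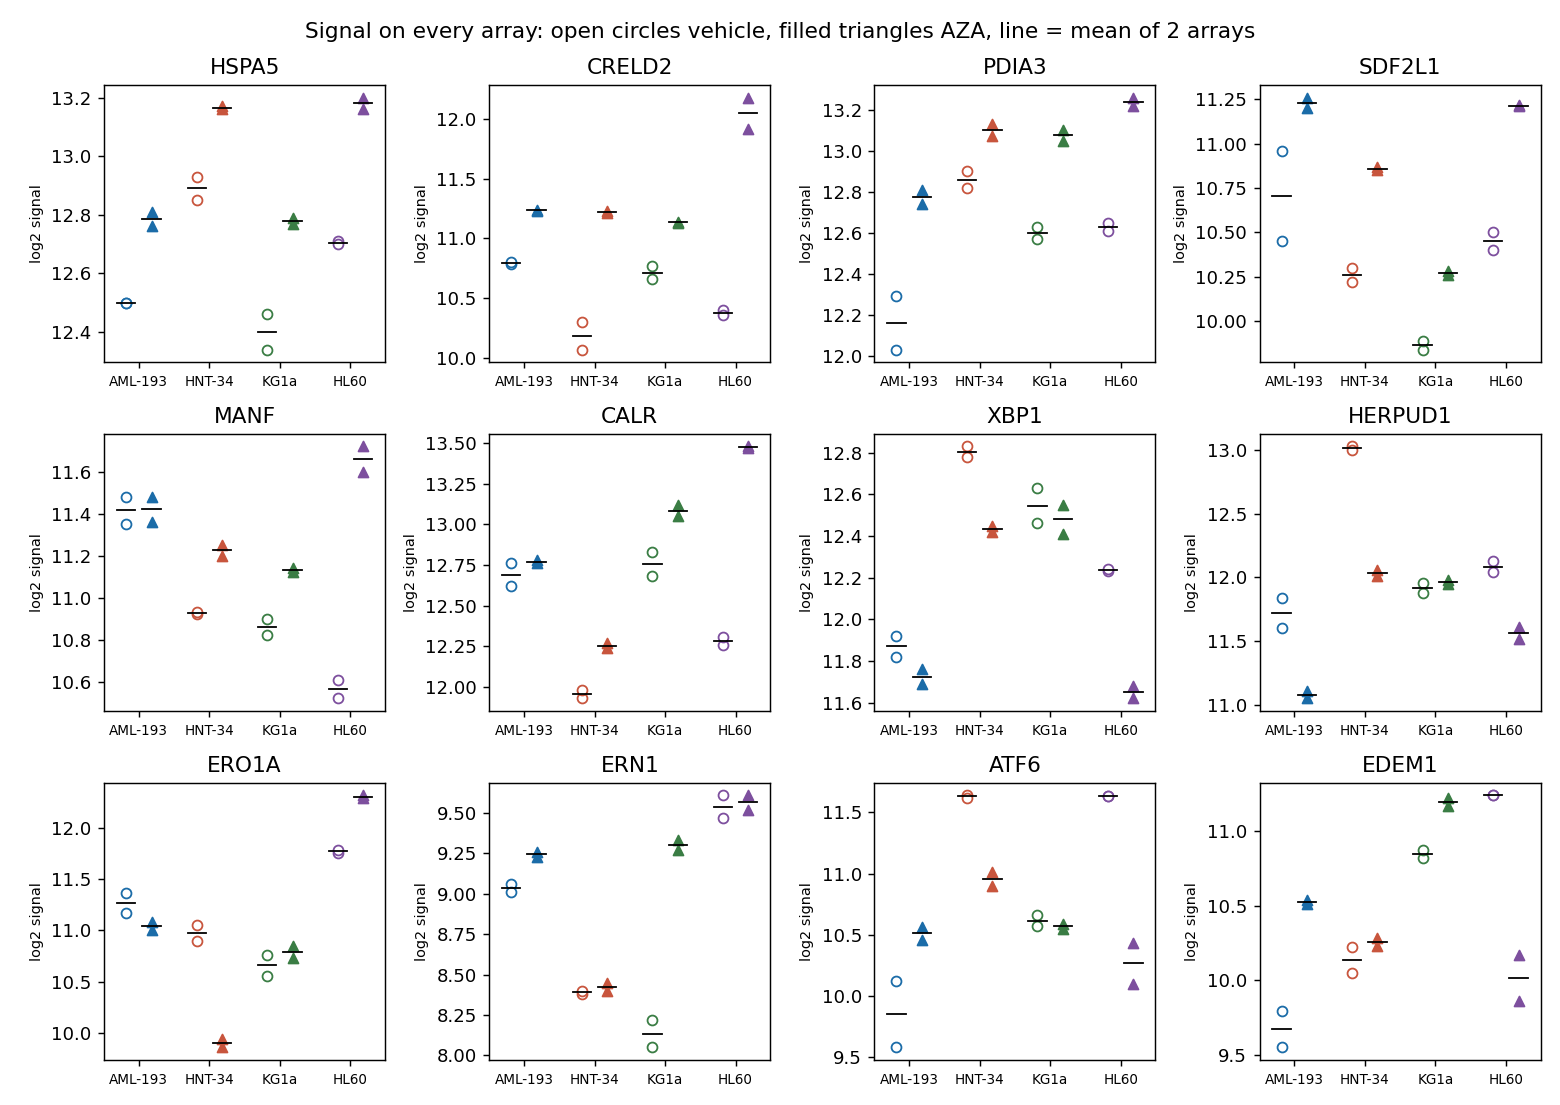
Log2 signal (y axis) on each of the 16 arrays for 12 members, by cell line (x axis); open circles are vehicle arrays, filled triangles AZA arrays and short lines means of 2 arrays. HSPA5, CRELD2 and PDIA3 have every AZA array above both vehicle arrays of the same line, and ATF6 and EDEM1 lie above vehicle in AML-193 and below it in HL60.

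CALR, a soluble lectin chaperone, rose in HL60 from 12.26 and 12.31 to 13.48 and 13.47, or 2.28-fold (1.19 ± 0.07 SE, adjusted p 1.09e-07). In HNT-34 it rose from 11.93 and 11.98 to 12.27 and 12.24, and in KG1a from 12.83 and 12.68 to 13.05 and 13.12, with differences of 0.30 and 0.33. Its AML-193 arrays overlapped, 12.76 and 12.62 against 12.78 and 12.76. Both other CALR probe sets were above 0 in every line, at 0.66 and 0.60 in HL60, and one of them gave 1.33 in AML-193. With the covariate the HL60 value of CALR was 1.03, still called. CANX, the membrane-bound lectin, rose in AML-193 by 0.38 (0.31, not called, with the covariate) and had -0.13, 0.23 and 0.15 in the other lines. HSP90B1, the HSP90 of the ER, was the one member called in no line, as were 29.3% of all genes. Its arrays read 11.43 and 11.20 against 10.99 and 10.98 in AML-193, 11.15 and 10.77 against 11.18 and 11.41 in HNT-34, 10.93 and 11.29 against 11.23 and 11.18 in KG1a, and 11.14 and 11.16 against 11.26 and 11.40 in HL60. The differences were -0.33, 0.34, 0.09 and 0.18 (each ± 0.14 SE), the widest error among these chaperones, and the gene is read only by probe sets whose probes can also pair with other transcripts.

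Isomerases and oxidases act together, since the oxidases ERO1A and ERO1B recharge the isomerases. Of 7 measured genes of this kind 4 rose in AML-193, 2 in HNT-34, 3 in KG1a and 6 in HL60. CRELD2, an ER protein with isomerase activity, had the largest rise of any member, in HL60. Its arrays read 10.79 and 10.80 in AML-193 vehicle and 11.23 and 11.24 in AZA, and 10.30 and 10.07 in HNT-34 vehicle and 11.21 and 11.23 in AZA. In KG1a they read 10.66 and 10.77 against 11.13 and 11.14, and in HL60 10.40 and 10.36 against 12.18 and 11.92. The arms were apart in all lines, and after AZA the signals of AML-193, HNT-34 and KG1a lay within 11.13 to 11.24. The differences were 0.44, 1.03, 0.42 and 1.67 (each ± 0.09 SE), or 1.36-, 2.05-, 1.34- and 3.19-fold, with adjusted p of 0.00239, 2.25e-06, 0.0113 and 3.99e-08. The HL60 effect exceeded those of AML-193, HNT-34 and KG1a by 1.23, 0.64 and 1.26 (adjusted p 1.33e-05, 0.00222 and 2.72e-05). The gene has 1 probe set, and its KG1a call was lost when either KG1a AZA array or vehicle replicate 1 was left out, with adjusted p of 0.0732 to 0.0913 and differences of 0.36 to 0.42. With the covariate the AML-193 difference was 0.43, with adjusted p 0.339.

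PDIA3, the isomerase that CALR and CANX recruit, rose from 12.03 and 12.29 to 12.74 and 12.81 in AML-193 and from 12.90 and 12.82 to 13.13 and 13.07 in HNT-34. In KG1a it went from 12.57 and 12.63 to 13.05 and 13.10 and in HL60 from 12.65 and 12.61 to 13.22 and 13.26. No arms overlapped, and the differences were 0.61, 0.24, 0.48 and 0.61 (each ± 0.08 SE), with all 3 bright probe sets above 0 in every line. With the covariate the AML-193 value was 0.19, not called, and that of HL60 0.88, called. The HNT-34 call, at an adjusted p of 0.0485, was lost in 12 of 16 fits with 1 array left out, with adjusted p of 0.0523 to 0.232, and in the fit without a filter on dim genes. PDIA4 rose in AML-193 from 10.30 and 10.19 to 10.90 and 10.87, and in HL60 from 10.43 and 10.46 to 11.55 and 11.35 (1.01 ± 0.08 SE, 2.01-fold, adjusted p 1.01e-06). PDIA4 had the one AML-193 call left with the covariate, at 0.81 ± 0.17 SE and adjusted p 0.0305. PDIA6 rose in AML-193 from 12.06 and 12.27 to 12.98 and 12.90 (0.78), but its brightest probe set that pairs with no other transcripts gave 0.07, with adjusted p 0.59, and with the covariate the value was 0.24, not called. PDIA6 differed by 0.14, 0.22 and 0.01 in the other lines. P4HB, the classical disulfide isomerase, rose by 0.40 in KG1a, from 13.03 and 12.76 to 13.25 and 13.34, and by 0.38 in HL60, where it was 0.31 and not called with the covariate.

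The oxidases had calls in both directions. ERO1A fell in HNT-34 from 10.90 and 11.05 to 9.94 and 9.86, a 2.11-fold change (-1.08 ± 0.09 SE, adjusted p 1.57e-06), and all 3 of its probe sets were below 0 there, at -0.81, -0.46 and -1.08. In HL60 the probe set used rose from 11.76 and 11.79 to 12.32 and 12.29 (0.53), but the other ERO1A probe sets gave -0.47 and -0.10 in that line. The HNT-34 effect was below that of KG1a by 1.21 and below that of AML-193 by 0.85 (adjusted p 3.55e-05 and 0.00039). ERO1B, near the dim end at 7.13 to 8.57 in vehicle, fell in AML-193 from 7.25 and 7.39 to 7.02 and 6.86 (-0.38, adjusted p 0.0175) and rose in HL60 by 0.56. With the covariate these values were -0.29 and 0.50, neither called.

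Of ERN1, ATF6 and XBP1, 2 rose in AML-193, 2 fell in HNT-34, 1 rose in KG1a and 2 fell in HL60. XBP1 arrays read 11.82 and 11.92 in AML-193 vehicle against 11.69 and 11.76 in AZA, 12.83 and 12.78 against 12.42 and 12.45 in HNT-34, 12.46 and 12.63 against 12.55 and 12.41 in KG1a, and 12.23 and 12.24 against 11.62 and 11.68 in HL60. XBP1 fell in HNT-34 (-0.37 ± 0.08 SE, adjusted p 0.00273) and in HL60 (-0.59 ± 0.08 SE, 1.5-fold, adjusted p 7.26e-05), and the KG1a arms overlapped. With the covariate those values were -0.39 and -0.44, both called. Splicing of XBP1 was not analysed here.

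ERN1 rose in KG1a from 8.22 and 8.05 to 9.33 and 9.27, or 2.25-fold (1.17 ± 0.08 SE, adjusted p 6.91e-07). In AML-193 it went from 9.06 and 9.01 to 9.26 and 9.23 (0.21, adjusted p 0.0454), and in HNT-34 and HL60 the arms overlapped, 8.38 and 8.40 against 8.40 and 8.45, and 9.61 and 9.47 against 9.52 and 9.61. The AML-193 call was lost in 10 of 16 fits with 1 array left out, with adjusted p of 0.0572 to 0.156, and also without a filter on dim genes, with renewed quantile scaling, with limma's trend, with the line's own arrays and with the covariate. The KG1a effect exceeded those of AML-193, HNT-34 and HL60 by 0.96, 1.13 and 1.14 (adjusted p 8.15e-05, 1.35e-05 and 1.49e-05). KG1a had the lowest ERN1 signal in vehicle and stood at 9.30 after AZA, within the vehicle range of the lines. The other ERN1 probe sets gave 0.24 and 0.28 in KG1a, so the size rests on the brightest probe set.

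ATF6 arrays read 9.58 and 10.12 against 10.56 and 10.46 in AML-193, 11.64 and 11.62 against 11.01 and 10.90 in HNT-34, 10.57 and 10.66 against 10.55 and 10.59 in KG1a, and 11.63 and 11.63 against 10.10 and 10.43 in HL60. It fell 1.61-fold in HNT-34 (-0.68 ± 0.14 SE, adjusted p 0.00246) and 2.57-fold in HL60 (-1.36 ± 0.14 SE, adjusted p 1.1e-05), and all 4 ATF6 probe sets were below 0 in both lines. In AML-193 it rose by 0.66 (adjusted p 0.00263), but other ATF6 probe sets there gave 0.74, -0.25 and -0.55, and with the covariate the value was -0.20. With the covariate ATF6 was -0.76 in HNT-34 and -0.81 in HL60, both called lower.

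Of 7 measured genes of ER-associated degradation, 2 rose and 1 fell in AML-193, 2 and 2 in HNT-34, 1 and 0 in KG1a and 2 and 3 in HL60. With so few genes these counts lie near the shares of all genes, such as 20.7% higher in AML-193 and 25.2% in HL60. HERPUD1, which gathers the degradation complex in the ER membrane and is induced in ER stress, fell in 3 lines. Its arrays went from 11.84 and 11.60 to 11.11 and 11.05 in AML-193, from 13.03 and 13 to 12.06 and 12.01 in HNT-34, and from 12.13 and 12.04 to 11.52 and 11.61 in HL60, and in KG1a they read 11.88 and 11.96 against 11.98 and 11.95. The differences were -0.64, -0.98, -0.52 and 0.04 (each ± 0.08 SE), and HNT-34, with the highest vehicle signal, fell 1.97-fold (adjusted p 1.18e-06). The KG1a effect was above that of HNT-34 by 1.02 and above that of HL60 by 0.56 (adjusted p 5.11e-05 and 0.00372). With the covariate the AML-193 value was -0.41, with adjusted p 0.253.

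SEL1L, the partner of the ubiquitin ligase SYVN1, fell in HNT-34 from 11.39 and 11.47 to 10.82 and 10.81 (-0.62 ± 0.06 SE, adjusted p 5.64e-06) and in HL60 from 11.12 and 11.17 to 10.87 and 10.86 (-0.28). It rose in KG1a from 10.49 and 10.49 to 10.77 and 10.76 (0.28), and all 4 SEL1L probe sets had the same sign within each of these 3 lines. EDEM1, which picks out misfolded glycoproteins, had the widest spread of effects among the members, 2.08 between AML-193 and HL60. It rose in AML-193 from 9.55 and 9.79 to 10.54 and 10.51 (0.86, adjusted p 4.75e-05) and fell in HL60 from 11.24 and 11.24 to 9.86 and 10.17 (-1.22 ± 0.10 SE, 2.34-fold, adjusted p 1.83e-06). With the covariate these values were 0.34, not called, and -0.89, called. SELENOS, a membrane protein that brings the unfolding ATPase to the ER, rose in AML-193 from 9.95 and 10.07 to 10.98 and 10.94 (0.95, 1.93-fold), which became 0.51 with adjusted p 0.313 with the covariate.

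The derlins, membrane proteins of the exit channel, rose where called by the probe set used, but their other probe sets had both signs. DERL1 rose in HNT-34 from 11.50 and 11.33 to 11.85 and 11.99 (0.50, adjusted p 0.000578), where its other probe sets gave 0.09, 0.09 and -0.01. DERL2 rose in HNT-34 from 10.62 and 10.68 to 10.91 and 10.94 (0.27) and in HL60 by 0.34, which was 0.27 and not called with the covariate. The other DERL2 probe set gave -0.31 in HNT-34 and -0.06 in HL60. DERL3 rose in HL60 from 9.16 and 9.22 to 10.30 and 9.98 (0.95 ± 0.16 SE, 1.93-fold, adjusted p 0.000437), which was 0.47 with adjusted p 0.154 with the covariate. Its other probe sets gave 0.85 and -0.14 in HL60.

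Of the 5 translocation genes 2 rose and 1 fell in AML-193, 1 fell in HNT-34, none passed in KG1a and 4 rose in HL60. SEC61A1 and SEC61B, subunits of the channel, were called higher in AML-193 by 0.23 and 0.31 and in HL60 by 0.55 and 0.31. For SEC61A1 the other bright probe set gave 1.54 in AML-193 and -1.27 in HL60, and the mean of both gave -0.36 in HL60, a call in the other direction (adjusted p 0.016). The AML-193 call of SEC61A1 was lost in 7 of 16 fits with 1 array left out. With the covariate neither was called in AML-193 (0.08 and 0.20), and both were in HL60 (0.64 and 0.38). SSR1, a subunit of the translocon-associated complex, fell in AML-193 from 13.54 and 13.34 to 13.10 and 13.14 (-0.32) and rose in HL60 by 0.55, but its 6 probe sets had both signs in each of these lines. With the covariate SSR1 was -0.06 and 0.39 there, the latter called. SSR3 of the same complex was called higher in HL60 by 0.20 (adjusted p 0.048), a call lost with the covariate and in 11 of 16 fits with 1 array left out. SRPRB, of the receptor that docks ribosomes, fell in HNT-34 from 12.09 and 12.15 to 11.77 and 11.72 (-0.37, adjusted p 0.00116), but the brightest probe set that does not also pair with other transcripts gave -0.10, with adjusted p 0.519. The remaining SRPRB probe set, which is dimmer, gave -0.34 in HNT-34.

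Setting the AZA effects of the lines against each other, 13 of 32 members had a higher effect in AML-193 than in HNT-34 and 3 a lower one (15.6% and 15.9% of all genes, 31.5% either way). Against KG1a, AML-193 effects were higher for 5 and lower for 4 (11.2% and 13.2%, 24.4% either way), and against HL60 for 7 and 13 (20.1% and 27.2%, 47.3% either way). HNT-34 effects were higher than those of KG1a for 2 and lower for 9 (7.07% and 8.09%, 15.2% either way). They were higher than those of HL60 for 3 and lower for 17 (15% and 20.7%, 35.8% either way). KG1a effects were higher than those of HL60 for 7 and lower for 9 (11.5% and 15.4%, 27% either way). All 3 of ERN1, ATF6 and XBP1 had a higher effect in KG1a than in HL60, and 6 of 7 isomerases and oxidases a lower one in HNT-34 than in HL60. With the 3′ minus 5′ covariate, members called either way went from 16 to 3 for AML-193 against HNT-34. Against KG1a the AML-193 count went from 9 to 1, and against HL60 from 20 to 2. That of HNT-34 against HL60 went from 20 to 12. The other pairs stayed within 1.5 times the reported counts. The share of all genes called in those covariate comparisons was not counted.

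Different probe sets of a gene read different parts of its transcripts, and here they parted by line. The 32 members have 84 probe sets, 81 of them bright, meaning at or above an array's median on 2 or more of the 16, of which 49 were not used for a gene. Of these 49, 24 were above 0 in AML-193 and below 0 in HL60 and 7 the reverse, and 10 were past 0.5 in both opposite directions. A CANX probe set gave 1.97 in AML-193 and -0.76 in HL60, one of P4HB 1.71 and -1, one of SEC61A1 1.54 and -1.27, and one of SSR3 1.53 and -0.96. Among the 32 probe sets used, 4 were above 0 in AML-193 and below 0 in HL60 and 7 the reverse. Of the 49 not used, 3 were above 0 in HNT-34 and below 0 in KG1a and 19 the reverse, and 0 were past 0.5 in opposite directions. Of the 32 used, 0 were above 0 in HNT-34 and below 0 in KG1a and 11 the reverse. The 3′ minus 5′ signal fell in AML-193 and rose in HL60, and its part in these values was not tested beyond the covariate. Of called members with several bright probe sets, all probe sets had one sign for 10 of 13 in AML-193, 8 of 10 in HNT-34, 7 of 8 in KG1a and 8 of 17 in HL60.

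**Figure D3:**
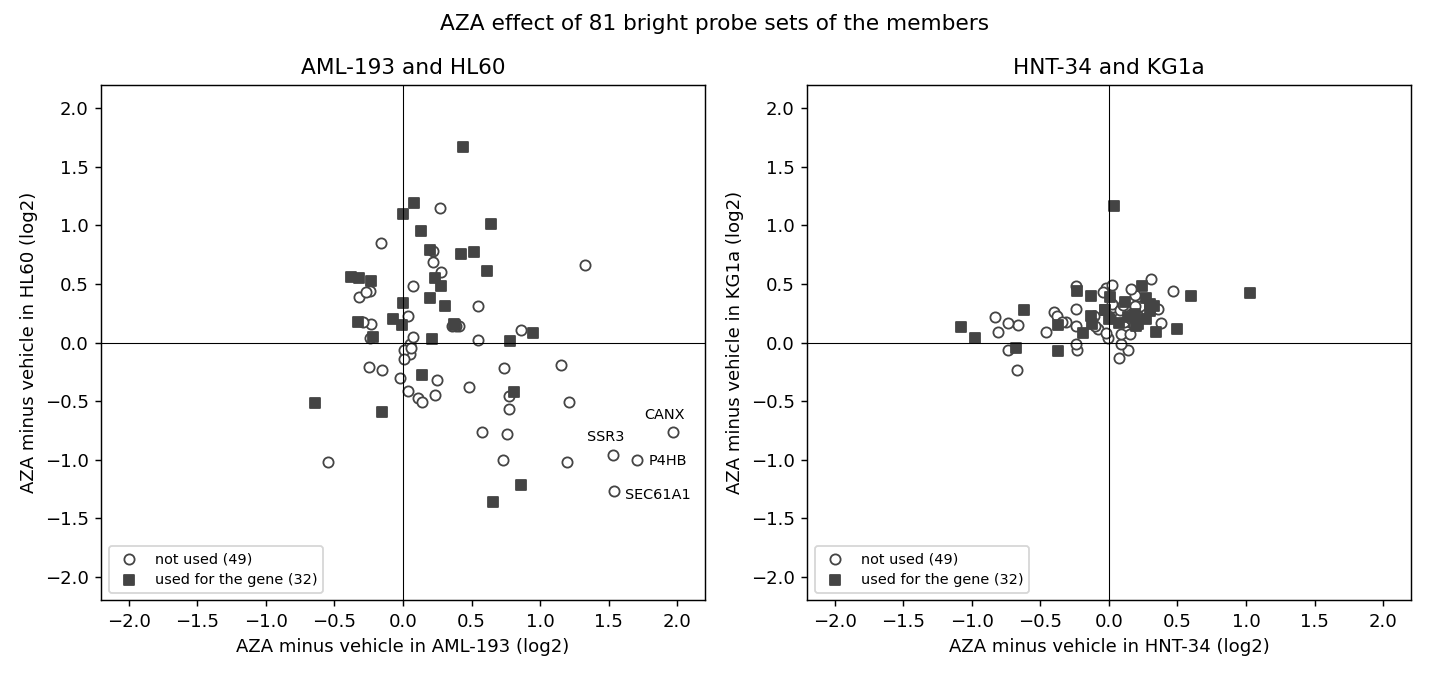
AZA minus vehicle (log2) of the members' 81 bright probe sets, AML-193 (x) against HL60 (y) on the left and HNT-34 (x) against KG1a (y) on the right; squares are the 32 probe sets used and circles the 49 others. At left, 24 circles lie in the lower right corner and 7 in the upper left, and at right 3 and 19 do.

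Before treatment the lines already differed in 30 of the 32 members by the moderated F-test, where 85.1% of all genes did, and HYOU1 (adjusted p 0.0585) and HSP90B1 (adjusted p 0.148) were the exceptions. HNT-34 had the highest vehicle level for 11 members and the lowest for 6, against 23% and 22.1% of all genes. AML-193 had the highest for 8 and the lowest for 12 (28.5% and 30.8% of all genes), KG1a for 4 and 10 (19% and 27.8%) and HL60 for 9 and 4 (29.6% and 19.2%). Ordering the 4 lines by level gives 96 neighbouring pairs over the members, of which 55 differed and 41 did not pass. The share of such pairs that differ over all genes was not counted, so these counts only describe the members.

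Between pairs of lines, vehicle levels in AML-193 were higher than in HNT-34 for 12 members and lower for 17 (32.7% and 33.3% of all genes, 65.9% either way). Against KG1a they were higher for 12 and lower for 14 (34.4% and 30.6%, 65% either way), and against HL60 for 7 and 18 (32.3% and 33.7%, 66% either way). HNT-34 was above KG1a for 18 and below for 7 (27.7% and 24.7%, 52.4% either way), and above HL60 for 9 and below for 8 (27.4% and 29.6%, 56.9% either way). KG1a was above HL60 for 8 and below for 14 (27.2% and 34.6%, 61.8% either way). Of the 7 degradation genes, 6 were lower in AML-193 than in HNT-34. With the 3′ minus 5′ covariate, members called either way went from 29 to 13 for AML-193 against HNT-34. Against KG1a they went from 26 to 12, and against HL60 from 25 to 15. The share of all genes called in those covariate comparisons was not counted.

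DNAJB9 had the widest vehicle range, 2.12, with 10.58 in HL60, 10.42 in HNT-34, 8.97 in KG1a and 8.47 in AML-193. HL60 and HNT-34 did not differ (adjusted p 0.266), and each step below them did (adjusted p 1.65e-07 and 0.00192). ATF6 stood at 11.63 in HNT-34 and in HL60, 10.62 in KG1a and 9.85 in AML-193, a range of 1.78 with both lower steps past the test. EDEM1 ran in steps that all passed, from 11.24 in HL60 to 10.85 in KG1a, 10.13 in HNT-34 and 9.67 in AML-193. DNAJB9, ATF6 and EDEM1 were thus all lowest in AML-193 vehicle, the group with the highest 3′ minus 5′ signal. The part of that signal was not tested beyond the covariate fit.

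DERL1 went the other way, from 12.48 in KG1a through 12.06 in AML-193 and 11.41 in HNT-34 to 10.93 in HL60, every step past the test. DNAJC3 was highest in AML-193 at 11.57, with 10.95 in HL60 and 10.78 in KG1a not apart (adjusted p 0.0545) and 10.07 in HNT-34. DERL2 ran from 10.65 in HNT-34 to 9.21 in HL60 and ERO1B from 8.57 in KG1a to 7.13 in HL60, both ranges of 1.44. HSPA5 was highest in HNT-34 at 12.89, then 12.70 in HL60 (adjusted p 0.0231 for the step) and 12.50 in AML-193 (0.0154), with KG1a at 12.40 not apart from AML-193 (0.193). XBP1 had the order HNT-34 at 12.80, KG1a at 12.55, HL60 at 12.24 and AML-193 at 11.87, and ERN1 HL60 at 9.54, AML-193 at 9.03, HNT-34 at 8.39 and KG1a at 8.13, with every step past the test. HSP90B1 lay between 10.96 and 11.31 and no step passed.

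**Figure D4:**
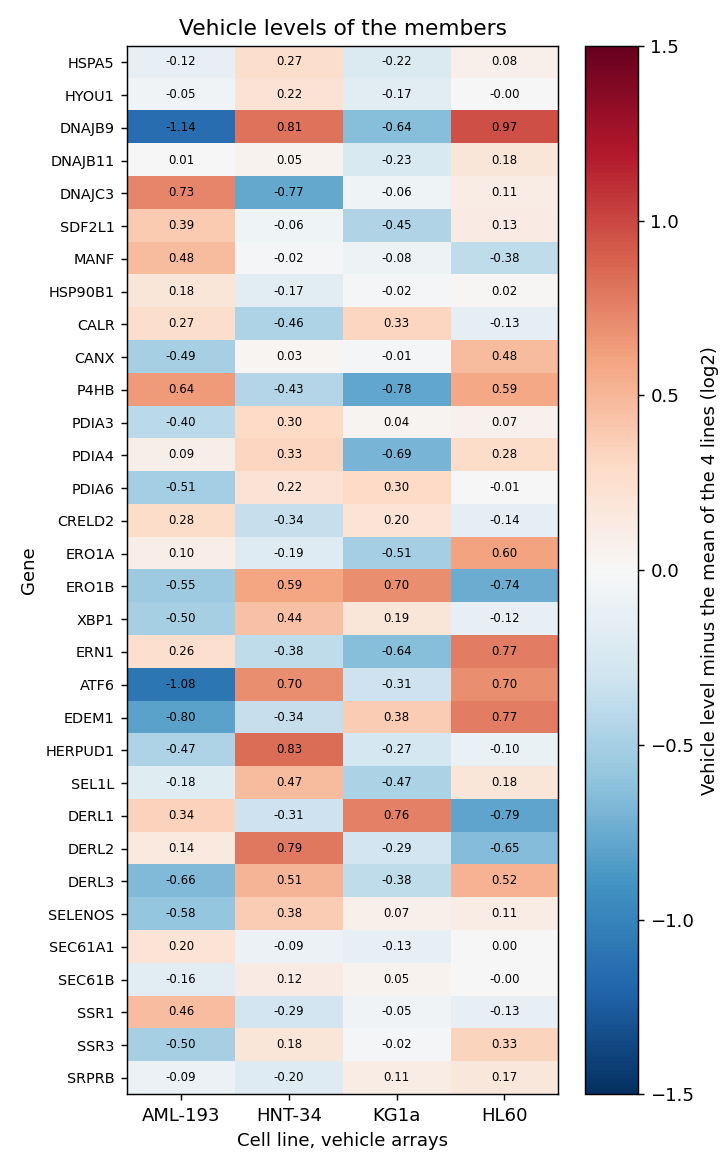
Vehicle level of each of 32 members (rows) in each line (columns) as the mean of 2 arrays minus the mean of the 4 lines (log2), red above and blue below. DNAJB9 and ATF6, with vehicle ranges of 2.12 and 1.78, are lowest in AML-193.

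The PERK arm was listed apart from the members, as the branch of the response that acts through ATF4, and 9 of its 10 genes were tested. Of the 9, 0 rose and 6 fell in AML-193, 1 and 7 in HNT-34 and 1 and 7 in HL60, with medians of -0.66, -1.19 and -0.39. In KG1a 4 rose and 3 fell, with a median of -0.11. ATF4, the factor, fell in every line, by 1.28, 0.60, 0.36 and 0.39 in AML-193, HNT-34, KG1a and HL60 (SE 0.06, adjusted p 1.73e-08 to 0.00239). DDIT3, the factor CHOP, differed by -0.66, -1.41 and -0.60 in AML-193, HNT-34 and HL60 and by 0.44 in KG1a, all called. EIF2AK3, the sensor, rose in KG1a by 0.25 and in HL60 by 0.50, and PPP1R15A, which ends the translation block, rose in HNT-34 by 0.30 and in KG1a by 0.39. CHAC1, a glutathione-cleaving target, had the largest falls, -1.68, -2.91, -0.87 and -2.04, and TRIB3, an ATF4 target that curbs it, gave -1.31, -2.51, 0.43 and -1.01. With the covariate 4 of 9 were lower in AML-193 and 5 of 9 in HL60, ATF4 among them at -1.21 and -0.44. As background, ATF4 and its targets also respond to amino acid supply.

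**Figure D5:**
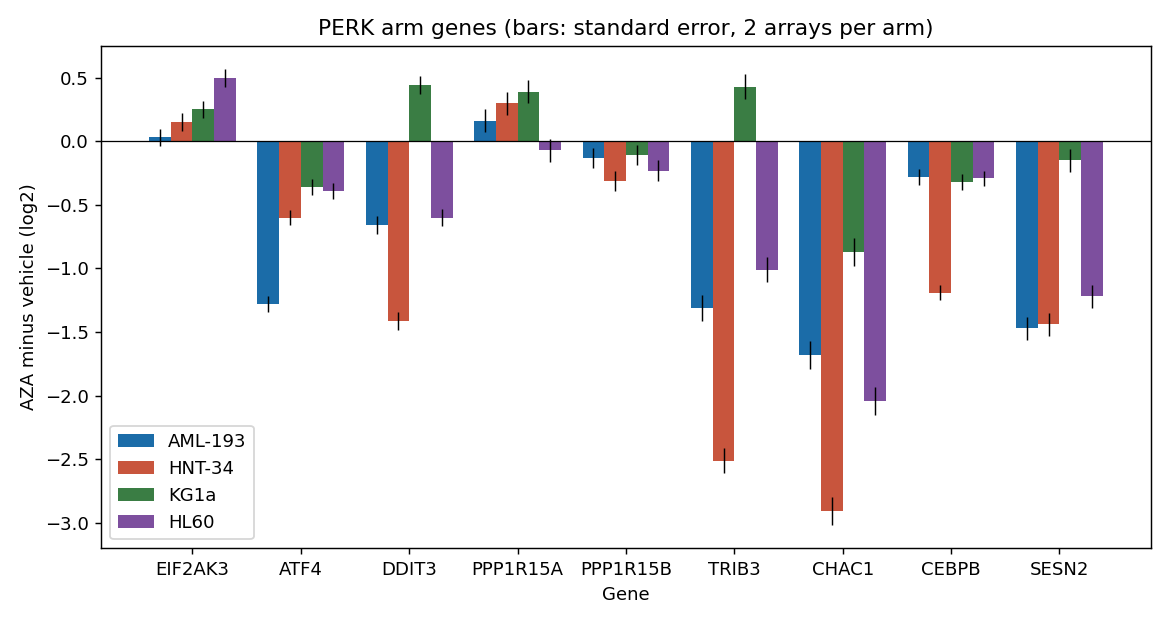
AZA minus vehicle (log2, y axis) of 9 PERK arm genes (x axis) in each line; bars start at 0, and thin lines are standard errors of the difference. ATF4 and CHAC1 lie below 0 in all 4 lines, and DDIT3 and TRIB3 lie above 0 in KG1a alone.

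Other genes of the pathway, listed by role, had calls in both directions, beside 20.7%, 15.4%, 6.56% and 25.2% of all genes higher and 20.2%, 14.8%, 3.36% and 16% lower in AML-193, HNT-34, KG1a and HL60. Of 29 further folding genes tested, 8 rose and 5 fell in AML-193, 2 and 7 in HNT-34, 3 and 0 in KG1a and 8 and 5 in HL60. PPIB, a prolyl isomerase of the ER, rose in HL60 by 0.71, and DNAJC1, an ER membrane co-chaperone, fell in AML-193, HNT-34 and HL60 by 0.70, 0.94 and 0.28. Of 24 other degradation genes, 2 rose and 7 fell in AML-193, 2 and 5 in HNT-34, 2 and 0 in KG1a and 12 and 2 in HL60. Of 19 other translocation and signal peptidase genes the counts were 8 and 5, 0 and 2, 2 and 0, and 6 and 3. Of 11 oligosaccharyltransferase genes, which attach sugar chains, 7 rose and 2 fell in AML-193, 2 and 0 in HNT-34, 1 and 0 in KG1a and 5 and 1 in HL60. Of 20 export genes 4 rose and 3 fell, then 2 and 3, 2 and 0, and 9 and 2, with the retrieval receptor KDELR3 up by 0.93 in HL60. Of 8 other sensors and activating proteases 2 rose and 3 fell, then 1 and 1, 1 and 0, and 2 and 1, with CREB3L2 up by 0.67 in HL60 and 0.60 in KG1a. With the 3′ minus 5′ covariate no gene of these lists was called in AML-193, where 1.54% of all genes were higher and 1.12% lower. In HL60 the counts in the same order were then 5 and 1, 2 and 0, 3 and 0, 2 and 0, 4 and 1, and 1 and 0. Of all genes 9.65% were higher and 5.64% lower there.

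Among genes for granule and secreted proteins of myeloid cells, 22 of 29 were called higher in AML-193, 15 in HNT-34, 13 in KG1a and 20 in HL60, with 2, 2, 0 and 3 lower, beside 20.7%, 15.4%, 6.56% and 25.2% of all genes higher. Their medians were 0.88, 0.31, 0.44 and 0.58. With the covariate 7 were higher and 0 lower in AML-193, where 1.54% of all genes were higher, and 17 and 1 in HL60, where 9.65% were. Most of these proteins pass through the ER, but S100A8, S100A9, S100A12, SERPINB1 and IL1B carry no signal peptide and do not. ELANE, a neutrophil protease, rose by 3.67 in AML-193 and 2.78 in HL60, and PRG2, an eosinophil granule protein, by 5.96 in KG1a, 2.42 in HNT-34 and 2.55 in HL60. The part of these genes in the chaperone values was not tested. Of 7 B cell and plasma cell genes tested 2 rose in AML-193, 1 fell in HNT-34 and 1 rose in HL60, that one being MZB1, an ER co-chaperone, at 0.83.

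Members with an ER stress element had calls in both directions. Of the 11 members with an ERSE or ERSE-II, all tested, 5 rose and 2 fell in AML-193, 4 and 2 in HNT-34, 3 and 0 in KG1a and 6 and 2 in HL60. HSPA5 and CRELD2, printed above, were called higher in every line without the covariate, and HSP90B1, with 2 such elements, was called in none. With the 3′ minus 5′ covariate none of the 11 was called in AML-193, where PDIA4 was the only member called. XBP1 and HERPUD1, with an ERSE and an ERSE-II, fell in HNT-34 and HL60. Of 20 other tested genes with either element 0 rose and 3 fell in AML-193, 2 and 3 in HNT-34, 1 and 0 in KG1a and 7 and 3 in HL60. Over all genes tested 20.7%, 15.4%, 6.56% and 25.2% were higher in AML-193, HNT-34, KG1a and HL60. Lower were 20.2%, 14.8%, 3.36% and 16%.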

How the data were processed

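Transcript signals were analysed from 16 arrays, 2 for each of 8 groups. The log2 signals were used as deposited. The submitters' processing notes name RMA and the affy package as what the authors used to make them. Of 54675 probe sets, 62 were controls, 41097 had 1 gene symbol, 1801 several and 11777 none, and 41043 matched a RefSeq gene (GRCh38.p14). Each gene took its single-symbol probe set with the highest mean, and 14049 of 19775 genes at or above the array median on at least 2 arrays were tested. limma 3.58.1 in R 4.3.3 was fitted to all 8 groups, with 8 residual degrees of freedom, and p-values were adjusted by Benjamini-Hochberg over all genes tested. The values carry no detection call, and differences near the background are compressed. The code was tested on simulated data. Members and gene lists were chosen with earlier results of these data known. All 34 members are named by role. Array values are given for called members with the largest changes per line (up to 6 each way), those with the widest vehicle ranges, and HSPA5, HSP90B1, XBP1, ERN1 and ATF6. From other lists up to 3 called genes with the largest change per line were named, and the main PERK arm genes in every line. Alternatives were the probe set rule, the filter, renewed quantile scaling, limma's trend, single-line fits, the 3′ minus 5′ covariate and leaving out each array. Among marker lists, the T cell list had 3, 4, 2 and 3 of 5 genes higher in AML-193, HNT-34, KG1a and HL60.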

Additional observations from a re-analysis of the deposited data

Results flagged for a closer look

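The size of the AZA effect differed between the 4 lines for 27 of the 32 members by limma's moderated F-test, where 57% of all genes tested did. The widest difference between any pair of lines (log2) was EDEM1 at 2.08, ATF6 at 2.02, ERO1A at 1.61, CRELD2 at 1.26, DNAJB9 at 1.24, ERN1 at 1.14, CALR at 1.11, MANF at 1.09, HERPUD1 at 1.02. It was HYOU1 at 0.98, ERO1B at 0.94, SEL1L at 0.9, SELENOS at 0.87, SSR1 at 0.87, PDIA4 at 0.82, DERL3 at 0.81, PDIA6 at 0.77, DNAJC3 at 0.75 for the next genes, and DERL1 at 0.73, HSP90B1 at 0.67, SEC61A1 at 0.58, P4HB at 0.53, SRPRB at 0.53, XBP1 at 0.52, CANX at 0.5, PDIA3 at 0.37, DERL2 at 0.34 for the rest. For EDEM1 and ATF6 the widest difference lay between AML-193 and HL60, whose 3′ minus 5′ signals moved in opposite directions with AZA, and its part was not tested beyond the covariate. For ERO1A it lay between HNT-34 and HL60, for CRELD2 between KG1a and HL60, and for ERN1 between KG1a and HL60.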

How the results depend on the processing

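With renewed quantile scaling or no filter on dim genes, the counts of members called stayed within 1.5 times those reported. With the 3′ minus 5′ covariate AML-193 had 1 member higher and 0 lower, and DNAJB11, SDF2L1 and ATF6 turned to -0.06, -0.16 and -0.20 there. With limma's trend 5 members were lower in AML-193, and with only the line's own arrays 5 were higher in KG1a. With the mean of a gene's probe sets HL60 had 11 higher and 10 lower. In that setting P4HB (-0.16), ERO1A (-0.01), SEC61A1 (-0.36), SSR1 (-0.04) and SSR3 (-0.10) turned in HL60, DERL2 (-0.02) in HNT-34 and SSR1 (0.07) in AML-193. The cause of these changes was not tested. Leaving out 1 array at a time gave 13 to 17 higher and 2 to 5 lower in AML-193, with 5 without either KG1a vehicle array and 2 without AML-193 vehicle replicate 2. It gave 5 to 10 higher in HNT-34, with 5 without HNT-34 AZA replicate 1. It gave 4 to 14 higher in KG1a, with 6 without AZA replicate 1 and 4 without AZA replicate 2, and 17 to 19 higher and 5 to 6 lower in HL60. Where this left 1 array in a group, that array was assumed to vary like the other groups. Calls kept whichever array was left out were 14 of 19 in AML-193, 9 of 14 in HNT-34, 4 of 10 in KG1a and 22 of 24 in HL60. Leaving out probe sets that can pair with other transcripts was chosen after seeing the data. No paired analysis was possible because the labels carry no replicate numbers. With 2 arrays per group the number of arrays limits the precision.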

Other observations

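Among sugar-attaching enzymes of the ER, STT3A, a catalytic subunit, and DAD1, a small subunit, differed by 0.90 and 0.75 (log2) in AML-193, and DAD1 by 0.84 in HNT-34 and 0.53 in KG1a, all called higher by limma. RPN1 and RPN2, subunits that sit at the translocon, were called higher in HL60 at 0.75 and 0.65, and RPN1 lower in AML-193 at -0.24. MAGT1, an oxidoreductase subunit, was called higher in AML-193 at 1.05 and lower in HL60 at -0.92. The vesicle coat genes SEC31A and SEC24A were called higher in HL60 at 0.84 and 0.82, and SEC24A lower in AML-193 at -0.43. With the 3′ minus 5′ covariate, 0 of 11 oligosaccharyltransferase genes and 0 of 20 export genes tested were called in AML-193. In HL60 2 of the 11 were then called higher and 0 lower, and 4 of the 20 higher and 1 lower. Genes outside the list with an ER stress element in their promoter window included FICD, which modifies BiP, called higher at 0.68 in HL60, and NUCB1, a Golgi calcium-binding protein, called higher there at 0.49, both chosen after their values were seen.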
